A study of Mus musculus with 10 samples.

Results

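Cytochrome P450 genes were examined in inguinal white adipose tissue, which lies under the skin of the groin, from mice with and without Tcf7l2 in fat. Members were the protein-coding genes with a symbol of the form Cyp, number, letters, number and a total of at least 50 counts over the 10 libraries, with Cyp51 left out. Of the 94 P450 genes of that form, 34 reached this total, of 52636 genes in the table. The members nearest the limit were Cyp2t4 with 51 counts and Cyp26c1 with 57, and the largest totals below it were 40 for Cyp2b13 and 37 for Cyp17a1.

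The series holds 5 control libraries of genotype TCF7L2F/F, labelled wild type although both Tcf7l2 alleles are floxed, and 5 of genotype TCF7L2F/F; Adp-Cre, labelled as an adipose Tcf7l2 knockout. The labels do not spell out the promoter behind Adp-Cre. All were on a C57BL/6 background, 6 months old and fed a 65% high-fat diet, whose length is 16 weeks, 12 weeks or 4 months depending on the label. The controls are not described as carrying Cre, so Cre itself and the deletion cannot be told apart. The labels do not state that each library came from a separate mouse, and the p-values then measure only the spread between these samples. RNA was measured in whole tissue, so a lower value can reflect fewer cells of a type or less RNA per cell, which cannot be told apart.

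P450 enzymes are heme proteins that insert an oxygen atom into small, mostly fatty molecules. Most sit in the endoplasmic reticulum and take electrons from the reductase Por, while those of mitochondria take them from the ferredoxin Fdx1. The liver holds the richest set and uses it on drugs, bile acids and steroids, and other tissues express a smaller set for fatty acids, sterols, retinoic acid and vitamin D.

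In the knockout, Cyp2e1, Cyp1a1 and Cyp27a1 fell and Cyp2r1 rose. These 4 calls among 27 tested members lie near the share of all tested genes called (12.9%). With single libraries left out, Cyp27a1 kept its call in 5 of 10 fits and Cyp2r1 in 1. Cyp2e1, which oxidises ethanol, acetone and other small molecules, stood at 17.7% of its control level. Cyp1a1, the hydrocarbon-oxidising enzyme induced through the aryl hydrocarbon receptor, stood at 38.0%. The other 23 tested P450 genes did not pass the test, among them the abundant Cyp4b1, Cyp4v3, Cyp2j6 and Cyp20a1.

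Tcf7l2 itself was lower in every knockout library, with 5.57 to 6.20 CPM (read counts scaled to library size with TMM factors) against 9.16 to 11.4 CPM in the controls (log2 fold change -0.87, SE 0.0962, edgeR adjusted p = 0.00061, two-sided exact permutation p = 0.0079, the smallest that 5 against 5 can give). Libraries held between 14032866 and 17782073 counts, and 3 counts corresponded to between 0.169 and 0.214 CPM. Controls carry the library numbers 1 to 5 and knockouts 6 to 10, so handling in that order cannot be told apart from genotype. Along the leading principal component (500 genes of highest variance), control 5 at 5.99 lay inside the knockout range of 3.96 to 35.6, and knockout 1 lay at its far end. A score of intronic-type transcripts (the mean log2 CPM of 786 tested genes of the GENCODE types sense_intronic and TEC) spanned 0.382 to 1.27 across controls, against 0.0562 to 0.464 across knockouts. Fat cell markers summed to 38200 to 45800 CPM across controls, against 38100 to 51100 CPM across knockouts, with all 10 tested and 2 lower. All 10 T cell and all 10 B cell markers were tested and 4 of each were higher. Of the endothelial markers 8 of 10 were lower, as were 4 of 8 tested Schwann cell markers. Among all tested genes, 5.84% were higher and 7.05% lower. Macrophage, progenitor, pericyte, skeletal muscle, and mast cell and neutrophil lists had 0 called members each by edgeR, of 8 to 10 tested. In each list 0 to 4 had an unadjusted p below 0.05. All 9 tested skeletal muscle markers had positive log2 fold changes (median 1.44). That list varied widely, with sums of 25.0 to 544 CPM across controls, against 41.8 to 741 CPM across knockouts. The part of these differences in the P450 results was not tested.

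The promoters of Cyp2e1 and Cyp1a1 are shown because these 2 P450 genes were lower with each of the 10 libraries left out in turn. RefSeq windows of 250 bases before to 50 after a transcription start (GRCm38.p6) matched 28 of the 34 members, with 29 windows. Cyp2d22, Cyp4f17, Cyp2c23, Cyp7b1, Cyp39a1 and Cyp2u1 had no match. Capitals mark CTTTGA, the core that TCF/LEF factors bind, and TATAAA, the TATA box. The TCF/LEF core lies at -135 to -130 from the start of Cyp2e1, and the TATA box at -31 to -26 of Cyp2e1 and at -30 to -25 of Cyp1a1.
Cyp2e1, chr7:140763569-140763868, plus strand: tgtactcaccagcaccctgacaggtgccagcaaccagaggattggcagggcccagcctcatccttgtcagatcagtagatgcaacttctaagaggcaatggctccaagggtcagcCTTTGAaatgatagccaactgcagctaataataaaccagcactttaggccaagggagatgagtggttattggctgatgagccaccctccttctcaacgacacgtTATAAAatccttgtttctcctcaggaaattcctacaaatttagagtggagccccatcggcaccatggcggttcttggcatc
Cyp1a1, chr9:57697363-57697662, plus strand: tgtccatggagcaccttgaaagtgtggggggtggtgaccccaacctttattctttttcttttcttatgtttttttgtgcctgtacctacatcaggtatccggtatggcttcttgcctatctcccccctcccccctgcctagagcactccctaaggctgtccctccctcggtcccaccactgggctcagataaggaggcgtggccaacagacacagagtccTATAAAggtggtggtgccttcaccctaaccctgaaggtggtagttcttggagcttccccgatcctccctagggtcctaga

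Both strands were searched for each motif, and in the member windows no match overlapped one of another motif. The Cyp1a1 window is the RefSeq start, which lies inside the longer GENCODE gene. CTTTGA occurred in 7 of the 29 member windows (24.1%) and in 16% of all 32851 windows. Of the 4 P450 genes past the threshold, only Cyp2e1 held it, and the other 6 genes were Cyp4b1, Cyp3a13, Cyp46a1, Cyp4f39, Cyp26c1 and Cyp2c70. TATAAA occurred in 20.7% of the member windows and in 13.6% of all windows. TNGCGTG, the core that the aryl hydrocarbon receptor binds, occurred in 0 of the 29 member windows and in 5.07% of all windows. Sites farther upstream than these windows, also those of Cyp1a1, were not searched. These letters are matches in a short window and are not shown to be bound.

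The P450 genes differed widely in level. On the scale of CPM per kilobase of exon in controls, Cyp4b1 was the most abundant at 49.6, followed by Cyp2e1 at 41.0, Cyp4v3 at 31.6, Cyp20a1 at 20.1, Cyp27a1 at 17.9 and Cyp2j6 at 13.5. The SD over the 5 controls was 22.0 for Cyp2e1 and 6.74 for Cyp4b1, so the order of the first 2 lies within their spread. In the knockout, Cyp2e1 stood at 7.26 on this scale, below Cyp1b1 at 9.38.

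Summed over the 34 members, the level was 646 ± 77.2 CPM in controls and 536 ± 43.1 CPM in knockouts (mean ± SD, n = 5 each), with overlapping ranges of 557 to 722 and 471 to 582. Without Cyp2e1 the sums were 558 ± 41.1 and 520 ± 44.9 CPM. Cyp2e1 held 6.53% to 20.3% of the summed CPM in controls and 2.03% to 3.93% in knockouts, and these ranges did not overlap.

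**Figure D1:**
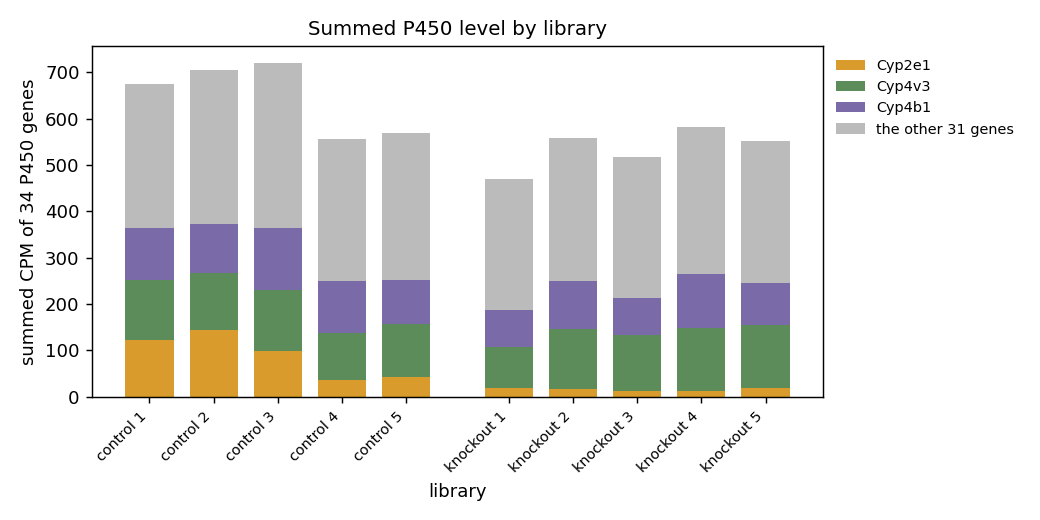
Bars give the summed TMM-scaled CPM of the 34 P450 genes in each library, stacked as Cyp2e1, Cyp4v3, Cyp4b1 and the other 31 genes. The Cyp2e1 layer is 98.2 to 143 CPM in controls 1 to 3, 36.4 and 42.5 CPM in controls 4 and 5, and 11.8 to 18.5 CPM in the knockouts.

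**Figure D2:**
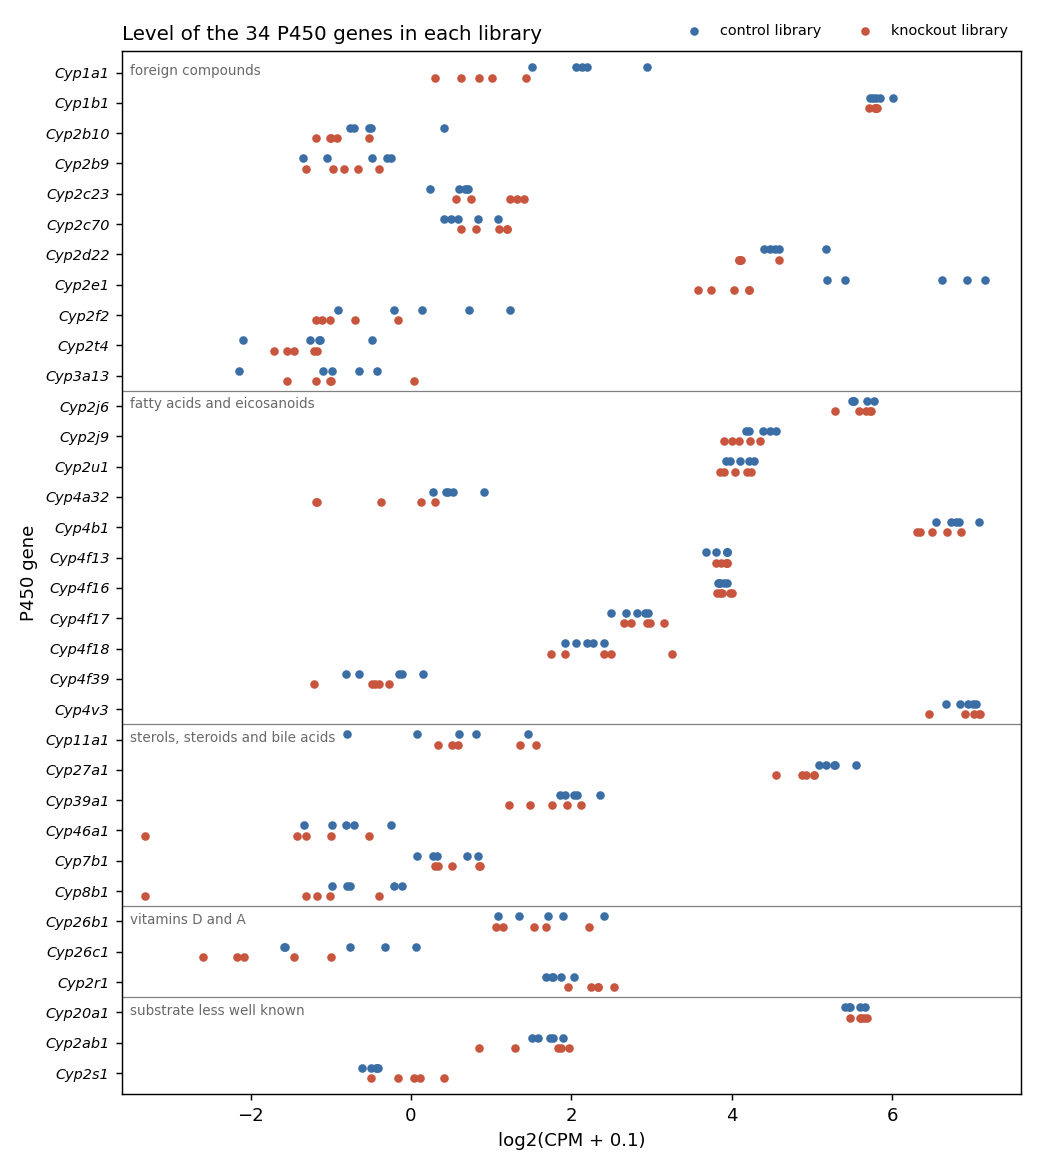
Each point is a library, on a log2(CPM + 0.1) axis, with the 34 P450 genes in rows grouped by what their subfamily is best known to act on. Cyp2e1, Cyp1a1 and Cyp27a1 are the tested genes whose control and knockout points do not overlap.

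Knockout was compared with control by edgeR's quasi-likelihood test across all 15927 tested genes, with Benjamini-Hochberg adjustment and a threshold of 0.05. The low-count filter left 27 of the 34 members. Of these 27, 3 were lower and 1 was higher, where 7.05% of all tested genes were lower, 5.84% higher and 12.9% either. With this filter the 4 calls lie near the share of all genes, and 11 members had an unadjusted p below 0.05, where 31% of all tested genes did. The 7.05%, 5.84% and 12.9% are also the background for the role groups and gene lists below. The median log2 fold change was -0.05 over the tested members and 0.00 over all tested genes. DESeq2 called 6 of the 31 members it tested, where it called 15.7% of all genes, and limma-voom 5 of 27, where it called 10.3%. Without a low-count filter, edgeR called 5 of all 34 members and 5.82% of 40157 genes. These shares cannot be compared, as members hold at least 50 counts and the other genes there needed only any count. Ranges of the groups did not overlap for 3 members, where 8.99% of all tested genes had no overlap.

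**Figure D3:**
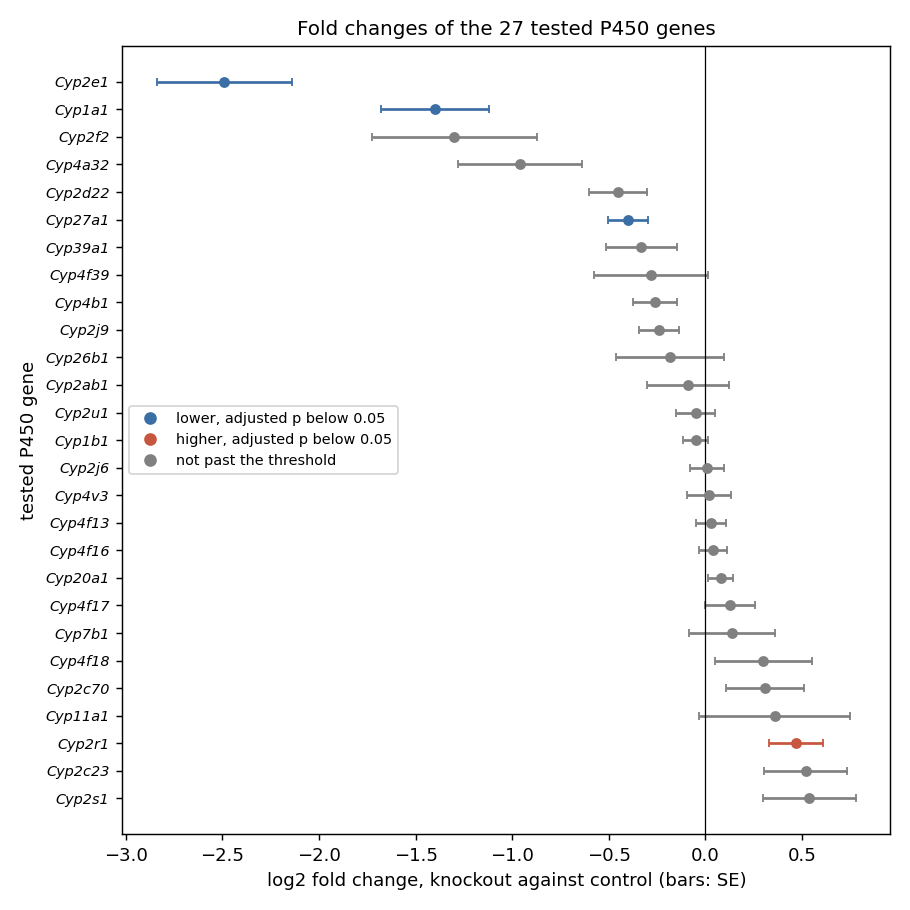
Points give the log2 fold change of the 27 tested P450 genes, knockout against control, with bars of 1 SE, and colours mark those with an edgeR adjusted p below 0.05. Values run from -2.49 for Cyp2e1 to 0.54 for Cyp2s1, and 13 are positive and 14 negative.

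Among 11 genes of subfamilies that mainly handle foreign compounds, 7 were tested, 2 were lower and 0 higher, and their median log2 fold change was -0.45. Genes were placed by subfamily, so single members can have other main substrates. The 2 tested genes with positive values, Cyp2c23 and Cyp2c70, are described below by such substrates. Cyp2e1 (ENSMUSG00000025479, GRCm38 chromosome 7, 140763739 to 140774987, plus strand) was at 122, 143, 98.2, 36.4 and 42.5 CPM in control 1 to 5 and at 18.5, 16.2, 13.3, 11.8 and 18.5 CPM in knockout 1 to 5. Controls 1 to 3 were high and controls 4 and 5 lower, yet every control exceeded every knockout. The fall was 5.64-fold (log2 fold change -2.49, SE 0.348, edgeR adjusted p = 0.0023), the fourth lowest log2 fold change of all tested genes. It rests on between 178 and 2248 counts per library. Leaving out single libraries gave log2 fold changes of -2.69 to -2.25 and adjusted p up to 0.00925.

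The intronic-type score was 1.08, 1.27, 0.727, 1.2 and 0.382 in control 1 to 5. In the same order Cyp2e1 was at 122, 143, 98.2, 36.4 and 42.5 CPM. The score of control 5 lay inside the knockout range. A relation between score and Cyp2e1 level within the controls was not tested. Controls 1 to 4 scored above every knockout (at most 0.464), so score and genotype are largely confounded and a model with both cannot separate them well. Once the score entered the edgeR model as a covariate, 49 genes passed in all (0.308%), and 0 of the 27 P450 genes did. Tcf7l2 still passed in that model (log2 fold change -0.83, edgeR adjusted p = 0.034). The log2 fold change of Cyp2e1 was then -1.90 (adjusted p = 0.235). Liver markers, of which 4 of 10 were tested and 0 were called (0 with an unadjusted p below 0.05), summed to 4250 to 6140 CPM across controls, against 4920 to 6520 CPM across knockouts. The albumin gene Alb, which defines liver, was at 5.16 to 30.5 CPM across controls, against 9.24 to 36.8 CPM across knockouts. Alb was thus a small part of the summed level, which rested on other listed genes and is not a measure of liver RNA.

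Cyp1a1 (ENSMUSG00000032315, chromosome 9, 57687928 to 57703824, plus strand) was at 2.74, 4.46, 7.56, 4.06 and 4.28 CPM in control 1 to 5. In knockout 1 to 5 it was at 1.44, 1.70, 1.91, 1.13 and 2.60 CPM. The highest knockout lay just below the lowest control. The fall of 1.40 on the log2 scale (SE 0.278, edgeR adjusted p = 0.0126) rests on 17 to 123 counts per library, and leaving out single libraries gave -1.57 to -1.14 with adjusted p up to 0.0378. In the model that holds the intronic-type score, its log2 fold change was -1.83 (adjusted p = 0.122). Cyp1b1, the other hydrocarbon-oxidising member of family 1 measured here, was at 52.6 to 64.6 CPM across controls, against 52.2 to 55.8 CPM across knockouts (log2 fold change -0.05, SE 0.0623, adjusted p = 0.583). The difference between the responses of Cyp1a1 and Cyp1b1 was not tested.

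Other members of this set were tested without passing. Cyp2d22, of a drug-oxidising subfamily, was at 21 to 35.9 CPM across controls, against 16.9 to 23.9 CPM across knockouts (log2 fold change -0.45, adjusted p = 0.0627), and 4 of the 5 knockouts lay below every control. It passed with DESeq2 (adjusted p = 0.0401) and without the low-count filter (adjusted p = 0.0202). Cyp2f2, best known from airway epithelium, was at 0.430 to 2.26 CPM across controls, against 0.342 to 0.796 CPM across knockouts (log2 fold change -1.30, adjusted p = 0.0623). It passed under the same 2 settings, with adjusted p of 0.0462 and 0.0382, from 5 to 38 counts per library. Its highest control and highest knockout were control 1 and knockout 4, which also held the most Alb of their groups (30.5 and 36.8 CPM). Control 4, the second highest for Cyp2f2 at 1.55 CPM, held 5.81 CPM of Alb. A share of liver RNA in the Cyp2f2 values was not tested. The summed level of mammary and skin epithelial markers was 2.23 to 4.10 CPM across controls, against 2.49 to 5.74 CPM across knockouts, with 2 of 10 tested and 0 called. Cyp2c23, an epoxygenase of arachidonic acid, had a log2 fold change of 0.52 (adjusted p = 0.119), with 3 knockouts at 2.26 to 2.55 CPM above every control and 2 within the control range or just above it. Cyp2c70, a bile acid hydroxylase, had one of 0.31 (adjusted p = 0.318). Cyp2b10, Cyp2b9, Cyp2t4 and Cyp3a13 were too low to be tested, with group means between 0.278 and 0.687 CPM and overlapping ranges.

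**Figure D4:**
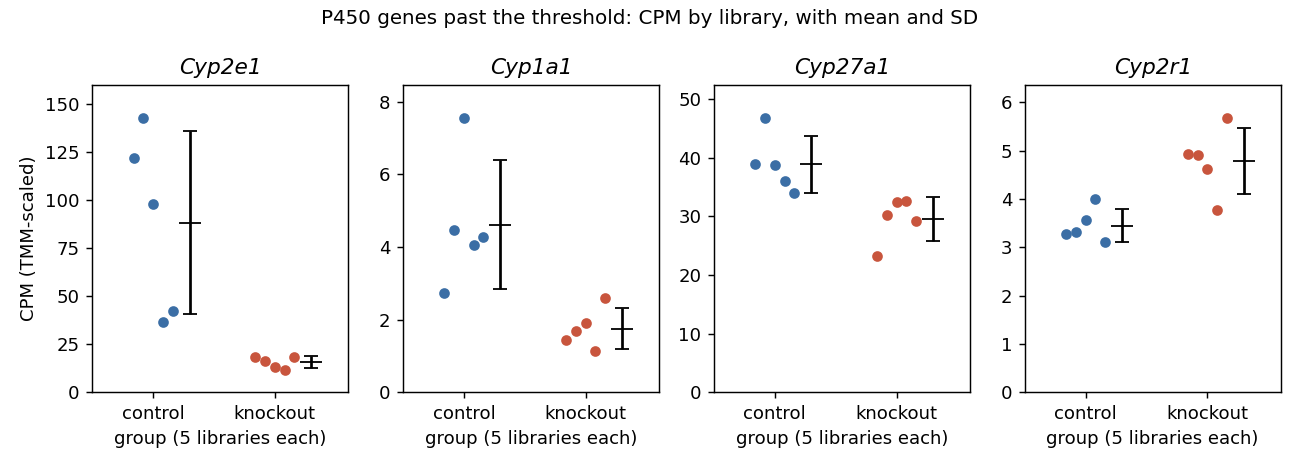
Points are the TMM-scaled CPM of each library for the 4 P450 genes past the threshold, and the bars beside them give the mean and SD of 5 libraries. Knockouts lie below all controls for Cyp2e1, Cyp1a1 and Cyp27a1, and 4 of 5 knockouts lie above all controls for Cyp2r1, where knockout 4 at 3.78 CPM does not.

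The 11 genes that act on fatty acids and eicosanoids were all tested, and 0 passed by edgeR (3 with an unadjusted p below 0.05). Their median log2 fold change was 0.01 and their range -0.96 to 0.30. DESeq2 called 0 of them and limma-voom called 1, Cyp4a32. Cyp4b1, a hydroxylase of fatty acids and furans, was at 93.6 to 135 CPM across controls, against 79.3 to 116 CPM across knockouts (log2 fold change -0.26, SE 0.115, adjusted p = 0.150). Cyp4v3, a fatty acid hydroxylase, was at 102 to 132 CPM and 87.8 to 137 CPM (log2 fold change 0.02, adjusted p = 0.919). Knockout 1 was the lowest library for Cyp4v3 and also for the arachidonate epoxygenase Cyp2j6, at 39 CPM, where controls spanned 45 to 54.6 CPM and the other knockouts 48.0 to 53.4 CPM. The log2 fold change of Cyp2j6 was 0.01 (SE 0.0896, adjusted p = 0.970).

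Cyp2j9, whose gene lies beside Cyp2j6 on chromosome 4, had a log2 fold change of -0.24 (adjusted p = 0.128). Cyp4a32, of the omega-hydroxylase subfamily induced through PPARalpha, was at 1.11 to 1.78 CPM across controls, against 0.342 to 1.13 CPM across knockouts. Its groups overlapped by a narrow margin, with knockout 4 just above control 5 (log2 fold change -0.96, SE 0.321, adjusted p = 0.0648), and limma-voom gave an adjusted p of 0.0497. The Cyp4a genes have near-identical neighbours, so its counts are uncertain. Cyp4f18, which acts on leukotrienes in white blood cells, was at 9.48 CPM in knockout 1 and at 3.25 to 5.53 CPM in the other 9 libraries. Its log2 fold change was 0.30 (adjusted p = 0.439) with all libraries, and the lowest value with 1 library left out was 0.01. B cell markers summed to 689 to 1020 CPM across controls, against 864 to 1700 CPM across knockouts.

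Cyp4f13, Cyp4f16, Cyp4f17 and Cyp4f39 lie together within 495 kb of chromosome 17, and none passed. Cyp4f13 and Cyp4f16 varied little over all 10 libraries, between 12.7 and 15.3 CPM and between 14 and 16 CPM. Cyp2u1, a long-chain fatty acid hydroxylase, had a log2 fold change of -0.05 (adjusted p = 0.775). Over the family, 15 members lay in 5 clusters with less than 1 Mb between neighbours. The 5 members within 1360 kb of chromosome 7 (Cyp2s1, Cyp2b10, Cyp2b9, Cyp2f2 and Cyp2t4) held 0 calls by edgeR with the low-count filter. In that fit 2 were tested, with an unadjusted p of 0.042 for Cyp2s1 and 0.0094 for Cyp2f2. Cyp2f2 passed with DESeq2 and without the filter. In the filtered edgeR fit Cyp1a1 was the only called gene in a cluster, and its neighbour Cyp11a1 did not pass.

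Among 6 genes for sterols, steroids and bile acids, 4 were tested, 1 was lower and 0 were higher, with a median log2 fold change of -0.10. Cyp27a1, the mitochondrial enzyme that hydroxylates the side chain of cholesterol (ENSMUSG00000026170, chromosome 1, 74713574 to 74737892, plus strand), was at 38.9, 46.8, 38.7, 36.1 and 34 CPM in control 1 to 5. In knockout 1 to 5 it was at 23.3, 30.3, 32.5, 32.6 and 29.2 CPM. The groups did not overlap, with control 5 the lowest control and knockout 1 the lowest library of all. The fall was 0.40 on the log2 scale (log2 fold change -0.40, SE 0.104, edgeR adjusted p = 0.0296). Any of 5 libraries (control 1, control 2, control 4, knockout 2, knockout 5) ended the Cyp27a1 call by its absence (adjusted p 0.053 to 0.0842), with log2 fold changes of -0.44 to -0.31 over all 10 leave-outs. Beside the intronic-type score its log2 fold change was -0.23 (adjusted p = 0.617).

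Cyp39a1, an oxysterol hydroxylase, was at 3.52 to 5.04 CPM across controls, against 2.24 to 4.25 CPM across knockouts (log2 fold change -0.33, adjusted p = 0.247). Cyp11a1, which cuts the cholesterol side chain to start steroid synthesis, was at 1.43 ± 0.813 CPM in controls and 1.84 ± 0.766 CPM in knockouts (mean ± SD, n = 5 each, log2 fold change 0.36, adjusted p = 0.556). The oxysterol hydroxylase Cyp7b1 had a log2 fold change of 0.14 (adjusted p = 0.717). Cyp46a1 and the bile acid hydroxylase Cyp8b1 were not tested, with totals of 64 and 75 counts and 1 knockout library each at 0.

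Of the 3 genes for vitamins D and A, 2 were tested, 1 was higher and 0 were lower. Cyp2r1, the hydroxylase that makes the circulating form of vitamin D (ENSMUSG00000030670, chromosome 7, 114549682 to 114562972, minus strand), was at 3.27, 3.31, 3.57, 3.99 and 3.11 CPM in control 1 to 5. In knockout 1 to 5 it was at 4.94, 4.92, 4.62, 3.78 and 5.68 CPM. Knockout 4 lay inside the control range and the other 4 knockouts above it. The rise was 1.39-fold (log2 fold change 0.47, SE 0.141, edgeR adjusted p = 0.0455) on 52 to 86 counts per library. This call was the weakest of the 4 and held in 1 of 10 fits with a library left out, that without knockout 4. Without any other library the adjusted p was 0.0532 to 0.105, and it was 0.0692 with library totals as the only scaling and 0.0824 without the low-count filter. Cyp26b1, which clears retinoic acid, was at 2.03 to 5.22 CPM across controls, against 1.98 to 4.54 CPM across knockouts (log2 fold change -0.18, adjusted p = 0.698). Its relative Cyp26c1 was not tested, with 41 counts in controls and 16 in knockouts.

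All 3 genes of less well known substrate were tested, and 0 passed by edgeR (1 with an unadjusted p below 0.05), by DESeq2 or by limma-voom. Cyp20a1 was at 42.5 to 50.6 CPM across controls, against 44.2 to 51.2 CPM across knockouts (log2 fold change 0.08, SE 0.0649, adjusted p = 0.454). Cyp2ab1 had a log2 fold change of -0.09 (adjusted p = 0.807). Cyp2s1 was at 0.553 to 0.655 CPM across controls, against 0.608 to 1.23 CPM across knockouts (log2 fold change 0.54, adjusted p = 0.145), with knockout 2 inside the control range and the other 4 knockouts above it.

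P450 enzymes depend on electron donors and on heme, and in a list of 22 such genes 21 were tested. Of these, 3 were higher and 1 was lower (median log2 fold change 0.09), where 12.9% of all tested genes were called. Fdx1, the ferredoxin that serves mitochondrial P450 enzymes such as Cyp27a1, fell from 24.1 ± 4.13 to 17.6 ± 1.45 CPM (mean ± SD, n = 5 each, log2 fold change -0.46, edgeR adjusted p = 0.0246). Its range was 19.2 to 27.8 CPM across controls, against 16.0 to 19.1 CPM across knockouts, without overlap. Fits that lacked control 2, knockout 2 or knockout 3 no longer called Fdx1 (adjusted p 0.0519 to 0.0732). Por, the reductase of the endoplasmic reticulum, was at 207 ± 30.6 and 187 ± 24.3 CPM (log2 fold change -0.15, adjusted p = 0.385), and Fdxr, which reduces the ferredoxin, had a log2 fold change of 0.11 (adjusted p = 0.484).

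Cyb5b, a cytochrome of the outer mitochondrial membrane, rose by 0.38 on the log2 scale (adjusted p = 0.0253), and Hmox1, which breaks heme down, by 0.33 (adjusted p = 0.0396). Urod, an enzyme of heme synthesis, rose by 0.24 (adjusted p = 0.0445). Urod kept its call in 3 of 10 fits with a library left out and lost it with library totals as the only scaling (adjusted p = 0.0863) and with limma-voom (adjusted p = 0.0539). Hmox1 kept its call in 2 of the 10 leave-outs and Cyb5b in 5. The first enzyme of heme synthesis, Alas1, did not pass (0.16, adjusted p = 0.419). Leaving out control 1, 2 or 4 or knockout 2 or 5 left 0 higher genes in this list, and leaving out knockout 3 left 1.

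Of 25 P450 regulators and aryl hydrocarbon receptor targets, 20 were tested, 0 were higher and 1 was lower (median log2 fold change -0.04). Among all tested genes, 12.9% were called. Arnt, the partner that the aryl hydrocarbon receptor needs to bind DNA, fell from 64.2 ± 3.57 to 53.0 ± 4.50 CPM (log2 fold change -0.28, edgeR adjusted p = 0.0242), and its ranges did not overlap. Fits that lacked control 1, control 2, knockout 2 or knockout 5 no longer called Arnt (adjusted p 0.054 to 0.0768). The receptor Ahr was at 14.3 ± 2.38 and 11.8 ± 1.92 CPM (log2 fold change -0.28, adjusted p = 0.197). The receptor targets in this list did not pass. Log2 fold changes were 0.42 for the repressor Ahrr (adjusted p = 0.164), -0.12 for Tiparp (adjusted p = 0.269) and -0.03 for Nqo1 (adjusted p = 0.892). Differences between these responses and that of Cyp1a1 were not tested. Nr5a2, a regulator of sterol hydroxylases in liver, had a log2 fold change of -0.66 (adjusted p = 0.0937). Those of the retinoic acid receptor Rarg and the oxysterol receptor Nr1h3 were -0.34 (adjusted p = 0.0532) and 0.17 (adjusted p = 0.117). The xenobiotic receptors Nr1i2 and Nr1i3 had totals of 7 and 17 counts and were not tested.

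In a list of 27 enzymes that share substrates with P450s, 24 were tested, 1 was higher and 3 were lower (median log2 fold change -0.09). Among all tested genes, 12.9% were called. Fmo1, a flavin monooxygenase that oxidises drugs, was at 119, 120, 123, 90.9 and 93.4 CPM in control 1 to 5 and at 55.3, 58.2, 72.5, 77.3 and 80.0 CPM in knockout 1 to 5. As for Cyp2e1, controls 4 and 5 were the lowest controls, and all knockouts lay below them (log2 fold change -0.67, SE 0.121, edgeR adjusted p = 0.0085). Fmo1 passed in all 10 fits with a library left out. Fmo5 fell by 0.41 (log2, adjusted p = 0.0240) and the sulfotransferase gene Sult1a1 by 0.56 (adjusted p = 0.0308). Without control 1, 2 or 4 or knockout 2, Fmo1 alone of the 3 was lower. The higher gene was Cyp51, the sterol demethylase of cholesterol synthesis and a P450 outside the symbol rule, at 0.50 (adjusted p = 0.0113). The prostanoid synthases Ptgis and Tbxas1, which are P450 enzymes by structure, had log2 fold changes of -0.07 and -0.11 (adjusted p = 0.777 and 0.435), and the soluble epoxide hydrolase Ephx2 one of 0.10 (adjusted p = 0.685). In the model that holds the intronic-type score, 0 of the 9 called genes of these 3 lists passed (adjusted p 0.227 for Fdx1, 0.312 for Fmo1 and 0.465 for Arnt).

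**Figure D5:**
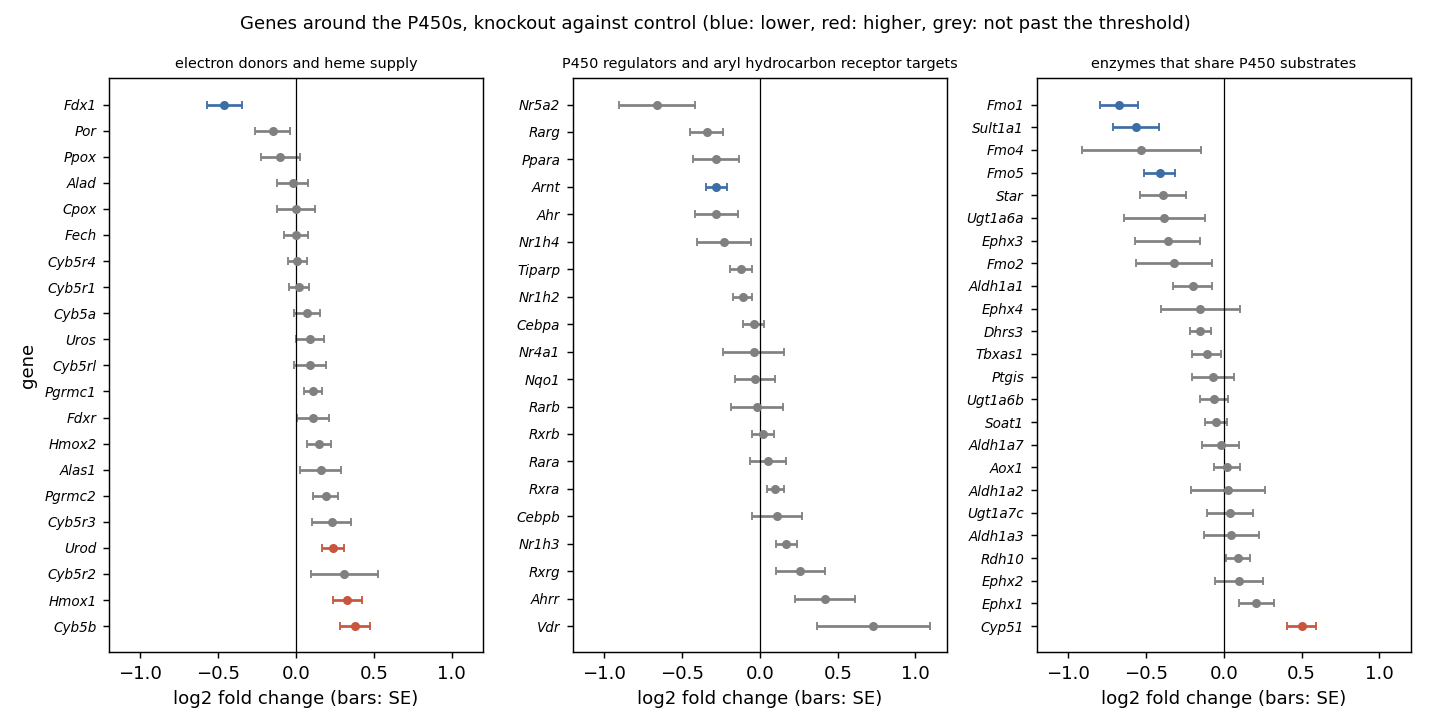
Points give the log2 fold change of each tested gene in the lists of electron donors and heme supply (21 genes), P450 regulators and aryl hydrocarbon receptor targets (20 genes) and enzymes that share P450 substrates (24 genes), with bars of 1 SE. Blue marks genes past the threshold and lower (Fdx1, Arnt, Fmo1, Sult1a1, Fmo5), and red those higher (Cyb5b, Hmox1, Urod, Cyp51).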

How the data were processed

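The authors deposited 1 table of whole-number counts, with genes in rows and the 10 libraries in columns, not normalized. Per the submitters' processing notes, the tools named are STAR 2.5.2b, featureCounts 1.5.1 and DESeq2 1.16.0, on GRCm38. Per the labels' protocols, total RNA was depleted of ribosomal RNA and made into libraries with a strand-marking kit. For the annotation release, the strand setting and multiply matching reads, nothing is given in the sources used here, so paralogs (Cyp2b, Cyp2c, Cyp4a, Cyp4f) and overlapping genes may share reads. Another gene covers 13.5% of the exonic bases of Cyp2f2, 10.4% of Cyp2u1, 9.76% of Cyp4f18 and 8.22% of Cyp4v3.

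Of 52636 gene identifiers, 52489 matched GENCODE M21, which gave symbols, types, positions and exonic lengths. Groups follow the genotype label, and replicate numbers the order of the records. The comparison used edgeR 4.0.16 (R 4.3.3): filterByExpr, TMM scaling and quasi-likelihood F tests, with Benjamini-Hochberg adjustment over all 15927 tested genes. The SE is the absolute log2 fold change divided by the square root of the F statistic. Per-library values are TMM-scaled CPM, and floors of 3 counts cover counting error only. Alternatives used limma-voom 3.58.1, DESeq2 1.42.0, other scaling and filters, and each library left out. The test was checked on simulated counts. The members and lists were chosen with earlier results of these data known. Named genes were Tcf7l2, the P450 genes past the threshold, the 3 most abundant per role, the 2 members nearest the limit of 50 counts on each side, and up to 4 genes of smallest p per list. A gene first placed in the list of electron donors and heme supply was taken out of it and is not reported here. Values of other members were added for completeness. The motifs were chosen after the results were seen.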

Additional observations from a re-analysis of the deposited data

Results flagged for a closer look

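In groups of 5 libraries, a library was singled out where its gap to the nearest other exceeded 0.71 of the group's range. Of 80 groups of libraries examined, 5 met this, and chance gives about 1 in 20. Cyp2d22 was at 35.9 CPM in control 3 against 21 to 23.9 CPM in the other controls. It was at 23.9 CPM in knockout 4 against 16.9 to 17.3 CPM in the other knockouts. Cyp1b1 was at 52.2 CPM in knockout 5 against 55.2 to 55.8 CPM. Cyp2c23 was at 1.08 CPM in control 2 against 1.42 to 1.54 CPM. Cyp4f39 was at 0.332 CPM in knockout 4 against 0.616 to 0.730 CPM.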

How the results depend on the processing

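No paired analysis was possible because the labels give no replicate numbers that the groups share. Leaving out 1 library at a time gave 537 to 3094 called genes in all, 2 to 5 lower and 0 to 1 higher P450 genes, and a log2 fold change of -0.92 to -0.84 for Tcf7l2. Against 2053 calls with all libraries, leaving out a single control gave 560 (control 1), 537 (control 2), 903 (control 4) and 3094 (control 5), and leaving out a knockout gave 998 (knockout 2) and 885 (knockout 5). In the first 3 of these and in both knockout leave-outs 2 P450 genes were lower, and without knockout 4 it was 5. The same leave-outs gave 0 to 4 higher and 0 to 1 lower genes of electron donors and heme supply, 0 to 1 higher and 0 to 3 lower regulators, and 1 to 2 higher and 1 to 3 lower enzymes with shared substrates. Without the low-count filter 1313 genes were higher and 1026 lower, where the filter left 930 and 1123. The number of lower P450 genes was 5 without the low-count filter and 5 with DESeq2, and that of higher ones was 0 without the filter and 0 with library totals as the only scaling. DESeq2 gave 2 lower regulators. The intronic-type score, a covariate chosen after seeing the data, is largely confounded with genotype. Beside it 49 genes were called, 11 higher and 38 lower, with 0 P450 genes higher and 0 lower. The 3 lists held 0 calls in each direction. The cause was not tested.

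Signs turned for some uncalled P450 genes. With the covariate the log2 fold changes were 0.06 for Cyp1b1, -0.10 for Cyp4v3, -0.20 for Cyp2j6, -0.21 for Cyp11a1, -0.06 for Cyp20a1 and 0.11 for Cyp4f39. With library totals they were -0.01 for Cyp4v3 and -0.03 for Cyp2j6. Over leave-outs the range was -0.03 to 0.13 for Cyp4v3, -0.03 to 0.08 for Cyp2j6, -0.01 to 0.06 for Cyp4f13, -0.40 to 0.05 for Cyp26b1 and -0.19 to 0.06 for Cyp2ab1. Of 459 values of 27 named genes under alternatives, 362 kept direction and side of the threshold, 69 lost a call, 9 gained one and 19 turned sign. Depth limits the 7 untested P450 genes, whose totals are at most 90 counts.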
